A study of Mus musculus with 18 samples.

Results

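Spinal motor neurons of SOD1 mutant mice were compared with ventral spinal cord tissue of SOD1 mutant mice, to find which transcripts were enriched in the motor neurons and which were depleted. The comparison used 6 of the 18 arrays of the series, chosen by their labels: 3 arrays of mutant spinal motor neurons and 3 of mutant cord tissue. Each array was an Affymetrix mouse expression array hybridised with RNA of 1 sample after T7-based linear amplification, which all samples of the series received. The other arrays hold the same kinds of sample from wildtype mice, and facial motor neurons of both genotypes. The 3 wildtype spinal motor neuron arrays and 3 wildtype tissue arrays served here to test whether a difference between motor neurons and tissue was itself different in the mutant.

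The labels call the mice SOD1 mutant and give no allele, promoter, sex or age beyond the unexplained mark D60 in every title. How the motor neurons were picked is not given in the sources used here, nor whether a motor neuron sample and a tissue sample came from the same mouse. The p-values below hence describe how far these arrays differ from one another, and that spread could be technical. Motor neurons are the large cholinergic neurons of the ventral horn whose axons leave the cord to drive muscle, and they are few beside the interneurons, astrocytes, oligodendrocytes, microglia and vessel cells of the surrounding tissue. Dominant mutations of SOD1, which encodes cytosolic copper-zinc superoxide dismutase, cause a familial form of amyotrophic lateral sclerosis (ALS), in which motor neurons degenerate and glia around them become reactive. Tissue also contains motor neurons, so a transcript shared by many cell types can be similar in both kinds of sample while being abundant in motor neurons. In bulk samples such as these, fewer cells of a type and less RNA per cell cannot be told apart.

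All levels below are log2(intensity + 16) after quantile normalization of the 18 arrays, and every difference is motor neurons minus tissue on that scale. Each gene is represented by its brightest probe set, and levels of different genes are not compared. Levels under 8.79, the 40th percentile of the mean levels of genes over the 18 arrays, are called close to background. That level is a convention and not a measured background. For a gene with a group mean under it a log2 difference is given without a fold. The motor neuron and tissue arrays also differed as RNA preparations. The ratio of the 3' to the 5' control probe sets of actin was 30.7 ± 7.36 (SD, n = 3) on the mutant motor neuron arrays and 1.64 ± 0.12 (SD, n = 3) on the mutant tissue arrays, and the Gapdh ratio was 21.1 ± 0.58 against 0.88 ± 0.04. This difference in RNA length or amplification coincides with the groups, so its share in any difference and that of cell identity cannot be told apart. Probe sets of a gene can lie at different distances from its 3' end, and where another bright probe set of a named gene had the opposite sign its value is given. Values of the same sign are mostly not given and can be of another size, so a fold describes 1 probe set.

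Of 10916 genes tested with limma, 4585 (42% of those tested) were higher in mutant motor neurons and 2929 (26.8%) were lower at a Benjamini-Hochberg adjusted p under 0.05, 68.8% in all. With a log2 difference of at least 1 as well, 2450 genes (22.4%) were higher and 1705 (15.6%) were lower. Counts of higher and lower genes in the lists below use the adjusted p alone and are best read beside 42% and 26.8%. Depletion reached further than enrichment: 71 genes were lower past 16-fold and 11 were higher past 16-fold, although 604 and 518 passed 4-fold. The median difference over all tested genes was 0.24, with quartiles at -0.53 and 0.91. The split depended on the scaling, since 3640 genes were higher and 3735 lower in the deposited scaling, and 6441 were higher and 1672 lower with the arrays set to a common median. Over all genes on the arrays the median difference was 0.27 after quantile normalization, -0.12 in the deposited scaling and 0.67 with a common median, so small differences are best read against that shift. Other probe sets of a gene could differ in sign from the brightest: among 1265 genes that were higher by at least 1 and had other bright probe sets, 66.9% of the 2038 other probe sets had the same sign, against 82.0% of the 1253 others of 784 lower genes.

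**Figure D1:**
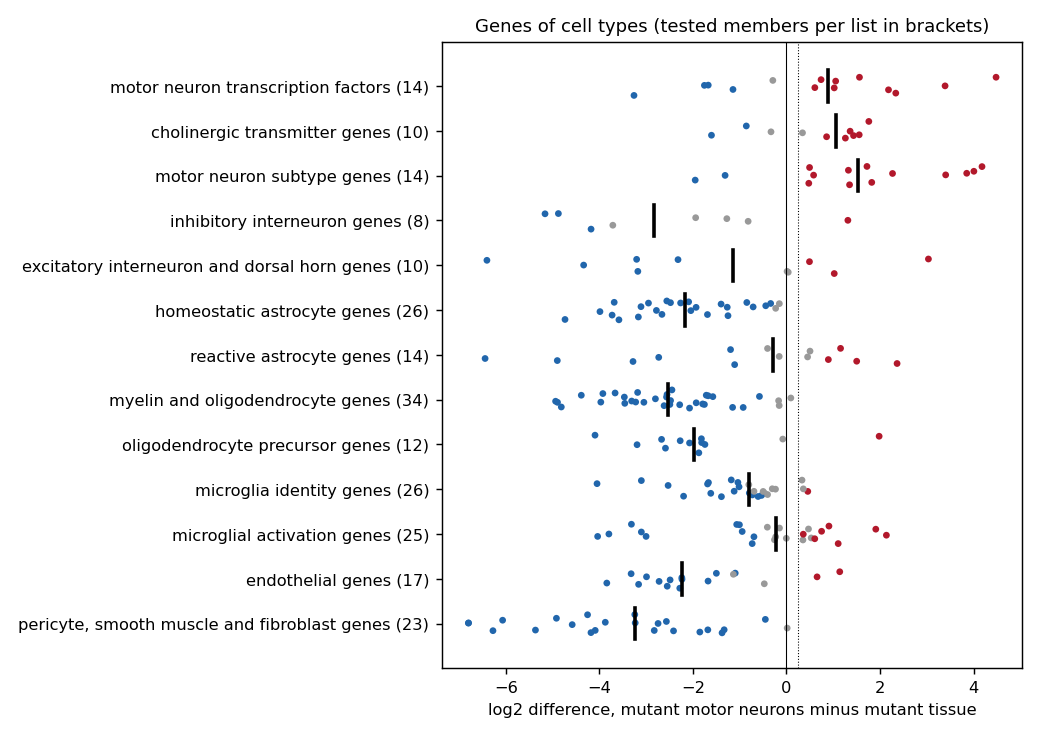
Log2 difference between SOD1 mutant spinal motor neurons and mutant cord tissue (horizontal axis) for each tested gene of 13 lists of cell type genes; red points were higher and blue points lower at adjusted p under 0.05, grey points did not pass, black bars are list medians and the dotted line is the median of all tested genes, 0.24. Motor neuron lists lie to the right, with medians of 0.88, 1.06 and 1.54, and the glial, vascular and interneuron lists have medians below 0, from -3.24 for pericyte, smooth muscle and fibroblast genes to -0.23 for activated microglia.

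Several transcription factors that define motor neurons were enriched. Mnx1, the homeobox factor that keeps motor neurons from taking an interneuron fate, read 12.30, 12.14 and 12.93 on the 3 motor neuron arrays and 7.85, 7.91 and 8.17 on the 3 tissue arrays. Its difference of 4.48 (SE 0.25, adjusted p 2.77e-07) was the largest enrichment of any gene tested, and its tissue level was close to background. Isl1, a LIM homeobox factor needed for motor neuron generation, read 13.58, 12.74 and 13.18 against 9.20, 10.21 and 9.92, a 10.5-fold enrichment (difference 3.39, SE 0.28, adjusted p 3.18e-06). Its relative Isl2 was 5.05-fold enriched (difference 2.34, SE 0.39, adjusted p 0.000395), and Lhx4, a LIM factor of ventrally exiting motor neurons, was higher by 2.18 (SE 0.34) from a tissue level close to background. None of these 4 genes had overlapping motor neuron and tissue arrays, as was the case for 72.9% of all tested genes. Of 14 tested genes on the list of motor neuron transcription factors, 9 were higher, 4 were lower and 1 did not pass, with a median of 0.88. In the deposited scaling 6 were higher and 5 lower, with a median of 0.37. Among those lower after quantile normalization, Bcl11a, a zinc finger repressor of several neuron types, fell by 3.26. Olig2 (-1.76) and Nkx6-2 (-1.67), which adult oligodendrocytes express, were 3.38-fold and 3.19-fold lower.

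The promoter window of Mnx1, the most enriched gene, is shown beside that of Mog, a depleted myelin gene, as 2 windows of unlike CpG content. Windows run from 250 bases before to 50 after the first listed RefSeq start (GRCm38.p6), 5′ to 3′ on the gene's strand, with CpG dinucleotides in capitals. Mnx1 lies at chr5:29478421-29478720 on the minus strand and holds 26 CpG, and Mog lies at chr17:37023349-37023648 on the minus strand and holds 3.
Mnx1: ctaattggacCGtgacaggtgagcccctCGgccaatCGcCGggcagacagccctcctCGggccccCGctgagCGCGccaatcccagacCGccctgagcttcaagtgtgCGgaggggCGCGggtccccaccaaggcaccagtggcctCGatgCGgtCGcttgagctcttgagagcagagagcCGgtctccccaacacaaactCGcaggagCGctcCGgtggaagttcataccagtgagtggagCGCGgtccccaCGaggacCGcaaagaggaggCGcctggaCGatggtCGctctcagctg
Mog: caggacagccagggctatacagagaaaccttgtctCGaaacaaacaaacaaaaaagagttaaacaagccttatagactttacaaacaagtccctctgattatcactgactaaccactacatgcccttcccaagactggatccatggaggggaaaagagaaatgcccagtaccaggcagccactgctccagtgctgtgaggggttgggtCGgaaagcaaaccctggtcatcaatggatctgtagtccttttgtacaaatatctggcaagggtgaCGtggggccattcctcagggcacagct
Over 8883 tested genes with a window the median CpG count was 22, with 21 for genes higher by at least 1 and 20 for genes lower by at least 1. It was 14 for the myelin and oligodendrocyte list, 9 for the pericyte and fibroblast list and 6 for the homeostatic astrocyte list. These counts describe the windows and were not tested.

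Cholinergic genes were mostly higher, but not all of them. Slc18a3, the vesicular acetylcholine transporter, read 13.20, 12.86 and 13.40 in motor neurons and 11.64, 11.37 and 11.78 in tissue, a 2.94-fold enrichment (difference 1.56, SE 0.17, adjusted p 2.44e-05). Chat, which makes acetylcholine, read 9.94, 9.07 and 9.70 against 7.27, 7.20 and 7.74, and its probe set was too dim over the 6 arrays to enter the test. The motor neuron arrays lay above the tissue arrays for both, and 72.9% of all tested genes had no overlap, in either direction. Slc5a7, the choline transporter of cholinergic terminals, differed by -0.33 (SE 0.20) and did not pass (adjusted p 0.172). Acly, which supplies cytosolic acetyl-CoA, was 3.39-fold higher on its brightest probe set, while other bright Acly probe sets gave -2.96, 2.87 and 0.30. Prima1, the membrane anchor of acetylcholinesterase, was 2.57-fold higher, and Chrnb2, a nicotinic receptor subunit, was 2.70-fold higher. The choline transporter-like Slc44a1 was 3.04-fold lower. In all, 6 of 10 tested cholinergic genes were higher and 2 were lower, with a median of 1.06. Second probe sets of 4 of them gave 2 higher, 2 lower and a median of -0.63.

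Genes that mark classes of motor neurons gave the highest median of any list, 1.54, with 12 of 14 tested members higher and 2 lower. Over the second probe sets of 6 of them 3 were higher and 2 lower, with a median of 0.32. With dim genes tested as well, the median was 0.95, beside 0.97 for the cholinergic list. Mmp9, a metalloproteinase of fast motor neurons, read 13.42, 13.04 and 13.59 in motor neurons against 9.16, 9.20 and 9.13 in tissue, an 18.1-fold enrichment (difference 4.18, SE 0.18, adjusted p 6.98e-08). Chodl, chondrolectin, another gene of fast motor neurons, read 15.95, 15.84 and 16.11 against 12.32, 11.72 and 11.85, a 16.1-fold enrichment. Calcb, the beta form of calcitonin gene-related peptide, read 16.25, 16.24 and 16.57 against 12.75, 13.15 and 12.94, a 10.6-fold enrichment (difference 3.40, SE 0.13). The ranges of motor neurons and tissue were well apart for these 3 genes, and 72.9% of all tested genes had no overlap. The peptide urotensin 2 (Uts2) was 14.5-fold higher, with more spread between motor neuron arrays (13.71, 15.60 and 14.95). Of the synaptic vesicle glycoproteins on this list, Sv2b was 3.54-fold higher and Sv2a was 3.87-fold lower. Gfra1, the binding subunit of the receptor for glial cell line-derived neurotrophic factor, was 4.82-fold higher on its brightest probe set (difference 2.27), but another bright probe set gave -5.03.

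Other neuropeptides went the opposite way. Of 24 tested peptide and granule genes, 14 were lower and 7 higher, with a median of -0.54 that became 0.50 with the arrays set to a common median. Tac1, the precursor of substance P, read 8.33, 4.68 and 7.92 in motor neurons and 13.24, 13.54 and 13.36 in tissue (difference -6.41, SE 0.76). Somatostatin (Sst) was 38.4-fold lower, and neuropeptide Y (Npy) was lower by 5.16 on the log2 scale, from 12.62 ± 0.08 (SD, n = 3) in tissue to close to background in motor neurons. Nnat, neuronatin, fell by 6.78. Tac2, the neurokinin B precursor of dorsal horn neurons, which is not on the list, fell by 7.30 (SE 0.38). The peptide Adcyap1 differed by -2.19, with motor neuron arrays at 10.62, 9.57 and 6.71.

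**Figure D2:**
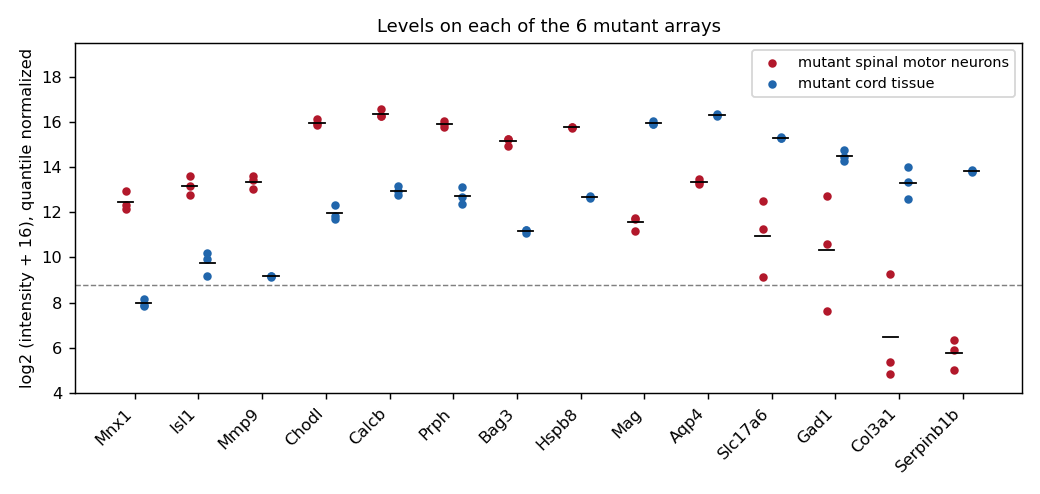
Level of 14 genes on each of the 6 mutant arrays (vertical axis, log2(intensity + 16) after quantile normalization); red points are the 3 motor neuron arrays, blue points the 3 tissue arrays, bars are group means and the dashed line is the background level of 8.79. Levels compare arrays within a gene only; the motor neuron arrays of Slc17a6, Gad1 and Col3a1 are spread more widely than those of Mnx1, Chodl or Hspb8.

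Genes of inhibitory interneurons were lower in 3 of 8 tested cases, higher in 1 and did not pass in 4, and several were well above background on some motor neuron arrays. Slc17a6, the vesicular glutamate transporter of spinal interneurons, read 11.27, 12.48 and 9.14 in motor neurons and 15.31, 15.29 and 15.31 in tissue, a 20.2-fold depletion (difference -4.34, SE 0.63, adjusted p 0.000155). Gad1, which makes GABA, read 10.61, 12.71 and 7.63 against 14.76, 14.26 and 14.46, an 18.1-fold depletion (adjusted p 0.00282). Slc32a1, the vesicular transporter of GABA and glycine, read 13.71, 14.80 and 10.06 against 13.56, 13.85 and 13.62, so that its groups overlapped and its difference of -0.82 (SE 0.92) did not pass. On all 3 genes motor neuron replicate 2 was the highest of the motor neuron arrays and replicate 3 the lowest. The same order held for Slc6a5, the neuronal glycine transporter (13.49, 14.52 and 9.86), for the calcium buffer Pvalb (14.25, 15.26 and 12.16) and for Calb1 (9.86, 14.16 and 5.53), none of which passed. The part of interneuron RNA in these levels was not tested. Without motor neuron replicate 3 the Slc32a1 difference was 0.58, and the median of the 8 tested inhibitory genes, -2.83 with all arrays, ranged from -3.97 to -1.06 when 1 array was left out. Gad2, the other GABA-synthesising enzyme, was lower by 4.88 and close to background on all motor neuron arrays (7.27, 8.38 and 8.18). Among excitatory and dorsal horn genes 5 of 10 were lower and 3 higher. Reln, the secreted protein reelin, was 9.22-fold lower, and Tacr3, the neurokinin B receptor, was lower by 3.18. The transcription factor Maf was 8.20-fold higher on its brightest probe set, but its other bright probe sets ranged from -3.19 to 2.49. Gjd2, a neuronal gap junction subunit placed on the inhibitory list, was 2.48-fold higher on its brightest probe set and differed by -2.18 on another. Defining genes of sensory neurons (Scn10a, Trpv1 and Scn11a) were too dim to be tested.

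Ion channels divided between enriched and depleted subunits. Kcnj14, an inwardly rectifying potassium channel known from motor nuclei, read 15.21, 14.93 and 15.32 in motor neurons against 10.98, 10.62 and 10.73 in tissue, a 20.8-fold enrichment (difference 4.38, SE 0.15, adjusted p 2.37e-08). Kcng4, a modifier subunit of delayed rectifiers, read 14.38, 14.55 and 14.56 against 11.55, 11.55 and 11.63, a 7.57-fold enrichment. In both genes the spread within a group was small beside the gap between groups. Kcna1 and Kcna2, the axonal low-threshold channels, were 1.22-fold and 1.47-fold higher, with another Kcna2 probe set at -3.66, while Kcnd2, a subunit of the transient A-type current, was 6.47-fold lower. Kcna6 was 5.82-fold higher on its brightest probe set but -2.66 and -3.20 on others. Of 28 tested potassium channel genes, 17 were higher and 8 lower, with a median of 0.49 (0.22 in the deposited scaling). Over the second probe sets of 21 of them 5 were higher and 10 lower, with a median of -0.03.

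Among 25 tested sodium, calcium and HCN channel genes 12 were higher and 9 lower, with a median of 0.41, of 0.08 in the deposited scaling and of -0.08 over the second probe sets of 13. Scn1a was 1.53-fold higher, whereas Scn8a, the main sodium channel of nodes and initial segments, differed by -0.10 (SE 0.13, adjusted p 0.519), with others at 0.62, -5.14 and 1.21. The accessory subunit Scn3b fell by 4.27 and Scn2b was 4.94-fold lower. Cacna2d1, an accessory subunit of calcium channels, was 7.88-fold lower, Cacna1e, which carries R-type current, was 6.56-fold lower, and the pacemaker channel Hcn2 was 5.51-fold lower.

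Receptor genes were divided as well. Of 20 tested glutamate receptor genes 8 were higher and 7 lower, beside 42% higher and 26.8% lower over all tested genes. Their median was 0.24, but -0.33 in the deposited scaling and -0.42 over the second probe sets of 12. Grin3b, an NMDA receptor subunit known for its expression in motor neurons, read 12.09, 12.58 and 12.59 against 8.68, 8.80 and 8.25 (difference 3.85, SE 0.23, adjusted p 3.82e-07). The AMPA receptor subunits split: Gria1 was 3.20-fold and Gria2 5.19-fold lower, while Gria3 was 1.90-fold higher. Grm5, a metabotropic receptor of many spinal neurons, fell by 4.63 to a level close to background. Grm3 was 3.51-fold lower, and Grid1 was 3.60-fold higher on its brightest probe set but -1.08 on another.

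Of the inhibitory receptor genes, Glra1 and Glrb, the subunits of the adult glycine receptor, differed by 0.05 and 0.23 and did not pass, and another Glra1 probe set gave -4.60. Gabra3 was 11.4-fold lower, and Slc12a2, the chloride importer, was 4.62-fold lower. Nlgn2, the adhesion protein of inhibitory synapses, was 4.82-fold higher. Of 14 tested genes on that list 5 were higher and 4 lower (median 0.18, and -0.96 over the second probe sets of 10). Among 10 tested receptors for modulators 4 were higher and 3 lower, their median of 0.16 turning to -0.65 in the deposited scaling. Trhr, the receptor for thyrotropin-releasing hormone, which excites motor neurons, read 13.78, 13.71 and 13.60 against 11.50, 10.89 and 11.43, a 5.36-fold enrichment. The serotonin receptor Htr7 was 3.65-fold and Htr1b 1.50-fold higher, and Htr2c was 4.16-fold lower. Cnr1, the cannabinoid receptor of many terminals, was 6.48-fold lower. Htr1a was too dim to be tested.

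Calcium buffers, pumps and exchangers went both ways, with 10 of 20 tested genes higher and 6 lower (median 0.15, and -0.70 over the second probe sets of 11 genes). Among the lower ones were 4 calcium sensor proteins of neurons: Hpcal4 fell by 5.99, Hpca (hippocalcin) was 19.0-fold lower, Ncald was 5.87-fold lower and Ncs1 was 3.44-fold lower. Calb2, calretinin, read 15.86, 15.88 and 15.93 against 14.93, 15.07 and 14.93, a 1.88-fold enrichment.

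**Figure D3:**
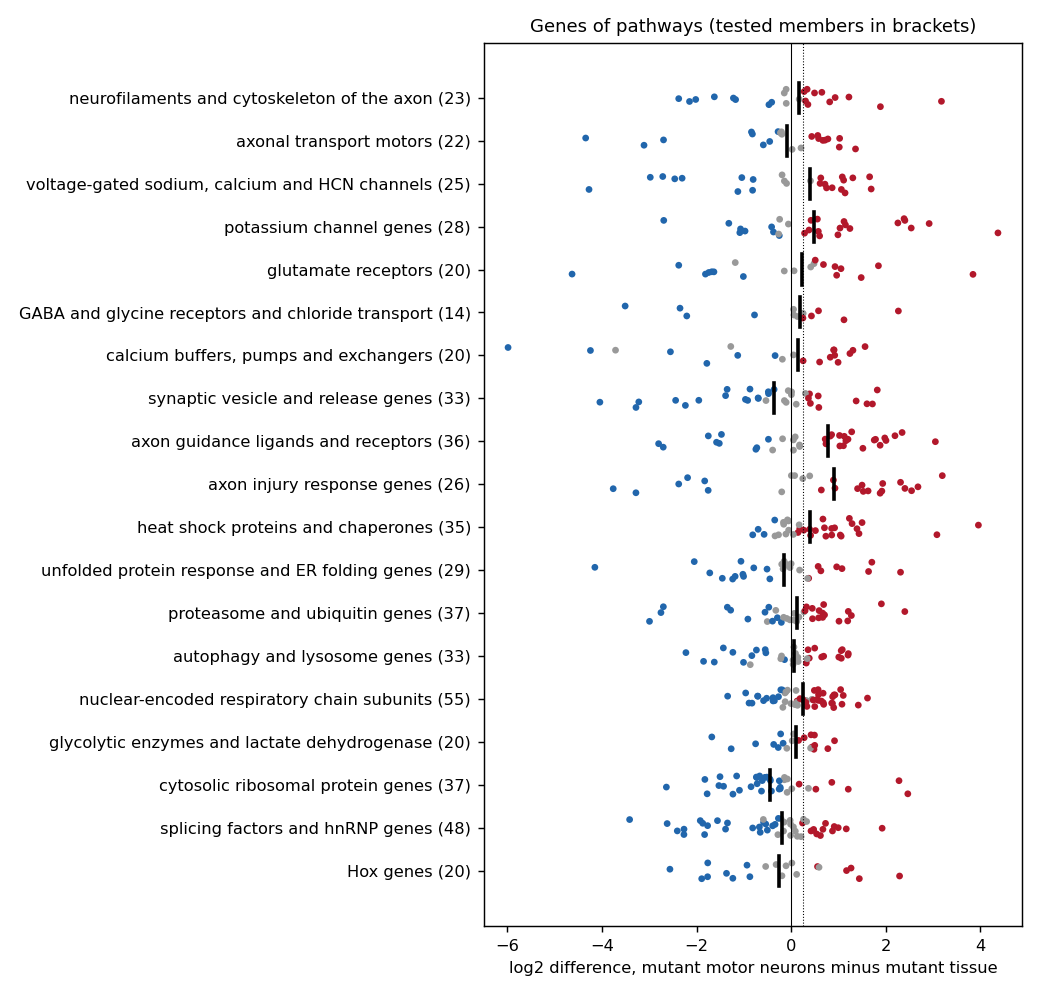
Log2 difference between mutant spinal motor neurons and mutant cord tissue (horizontal axis) for each tested gene of 19 pathway and family lists, drawn as in the plot of cell type genes. Most lists hold both enriched and depleted members, the ribosomal and synaptic lists lean to the left (medians -0.45 and -0.36), and the guidance and injury lists lean to the right (0.78 and 0.91).

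Presynaptic release genes were more often lower than higher. Of 33 tested, 16 were lower and 9 higher, with a median of -0.36, which was -0.27 in the deposited scaling and 0.51 with a common median. Syt1, the calcium sensor of fast release, read 10.78, 10.79 and 10.35 against 14.55, 14.74 and 14.76, a 16.5-fold depletion (difference -4.04, SE 0.15). Syt7 was 5.44-fold lower, Cplx2, which clamps and primes release, was 9.72-fold lower, and Stx1a, a membrane SNARE, was 4.71-fold lower. Sypl, a relative of synaptophysin found in many cells, was 9.33-fold lower. Snap25 was 1.40-fold lower on its brightest probe set and higher by 3.06 on another.

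The axonal cytoskeleton gave a median of 0.17, close to that of all genes, with 11 of 23 genes higher and 8 lower, and 3 higher and 11 lower over the second probe sets of 15 (median -0.75). Prph, peripherin, an intermediate filament of neurons with peripheral axons, read 15.88, 15.79 and 16.03 against 12.34, 13.13 and 12.69, a 9.07-fold enrichment (difference 3.18, SE 0.17, adjusted p 2.33e-07). The neurofilament subunits were higher by less: Nefh was 1.91-fold, Nefm 1.27-fold and Nefl 1.28-fold higher, and a second Nefl probe set gave -0.36. No motor neuron array of Nefh, Nefm or Nefl was below any tissue array, and 72.9% of all tested genes had no overlap, in either direction. Map2, the dendritic microtubule protein, was 4.05-fold lower with one of its other probe sets at 0.86, Stmn4 was 4.43-fold lower and Gap43, a growth-associated protein, was 5.19-fold lower. Motor proteins were divided, with 9 of 22 higher and 8 lower and a median of -0.09 that was 0.13 in the deposited scaling and 0.92 with a common median. Kif5a and Kif5b, kinesin heavy chains, were 1.21-fold and 1.79-fold lower and Kif5c was 1.35-fold higher, with another Kif5c probe set at -1.79. Kif1a, the carrier of vesicle precursors, was 6.49-fold lower, the kinesin adaptors Mapk8ip1 and Trak2 were 20.3-fold and 8.64-fold lower, and the dynactin subunit Dctn3 was 2.57-fold higher.

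Growth factor receptors and guidance genes included both enriched and depleted members. Ret, the signalling subunit of the receptor for glial cell line-derived neurotrophic factor, read 14.72, 14.65 and 14.65 against 12.90, 12.75 and 12.66, a 3.75-fold enrichment, although a second Ret probe set gave -0.40. Nrg1, the neuregulin that motor axons carry to Schwann cells and muscle, rose by 3.21 (12.02, 11.93 and 12.05 against 8.96, 8.36 and 9.05). On the list of trophic and neuromuscular junction genes 10 of 20 were higher and 7 lower (median 0.48), and 2 were higher and 6 lower over the second probe sets of 11 (median -0.67). With dim genes tested as well, the median over 27 genes of that list was -0.01. Igf1 was 9.96-fold lower. Of 36 guidance genes 20 were higher and 9 lower, with a median of 0.78 (0.23 in the deposited scaling). That median was 0.32 over 42 genes when dim ones were tested as well. Over the second probe sets of 23 guidance genes 7 were higher and 6 lower and the median was -0.14. Nrp2 and Nrp1, the neuropilin coreceptors for semaphorins, were 8.30-fold and 2.43-fold higher, and the bright probe sets of both genes had the same sign. Slit2, a repellent that motor neurons make, was 5.09-fold higher. Unc5c, a netrin receptor, was 2.16-fold higher on its brightest probe set and differed by -1.03 on another. Epha4, the ephrin receptor that sorts limb motor axons, did not pass (0.18, SE 0.23), its other probe sets lying at -1.86, -0.14 and 0.39. Ntn1, netrin 1, fell by 2.70, and the ligand Efnb3 was 6.98-fold lower.

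Heat shock proteins and chaperones were enriched in part. Bag3, a cochaperone that hands proteins to selective autophagy, read 15.24, 15.26 and 14.93 in motor neurons against 11.09, 11.22 and 11.23 in tissue, a 15.6-fold enrichment (difference 3.96, SE 0.13, adjusted p 1.85e-08). Its partner Hspb8, a small heat shock protein, read 15.77, 15.71 and 15.79 against 12.62, 12.68 and 12.72, an 8.49-fold enrichment (difference 3.09, SE 0.09, adjusted p 1.74e-08), with other bright probe sets at -2.001 and 1.70. Hspb1, the small heat shock protein HSP25, read 16.09, 16.24 and 16.27 against 14.47, 14.92 and 14.71, a 2.83-fold enrichment (SE 0.11). The motor neuron arrays did not overlap the tissue arrays in any of these genes, as was the case for 72.9% of all tested genes. Mutations of HSPB1 and HSPB8 are known causes of inherited motor neuropathy in humans. The inducible Hsp70 genes Hspa1a and Hspa1b were 2.45-fold and 2.71-fold higher, with other bright Hspa1b probe sets at 0.33 and 0.003. The mitochondrial chaperone Hspa9 was 2.63-fold higher with others of its probe sets at 0.16, -3.42 and 2.33. Cryab, a small heat shock protein that oligodendrocytes also make, differed by -0.16 and did not pass, and another bright Cryab probe set gave -2.52. Hspa1a and Hspa1b are near-identical copies, so their probe sets may share signal. Of 35 tested members 21 were higher and 4 lower, with a median of 0.39, of 0.65 in the deposited scaling and of 1.44 with a common median. Over the second brightest probe sets of 24 members the count was 4 higher and 9 lower, with a median of -0.10.

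The promoters of Bag3, Hspb8 and Hspb1 are shown because each holds the paired half-site of the heat shock element, in capitals (GAANNTTC or TTCNNGAA, which is its own reverse complement in each case, so that both strands are covered). This motif was chosen after the values were seen. The windows are as above, at chr7:128523333-128523632 on the plus strand for Bag3, chr5:116422815-116423114 on the minus strand for Hspb8 and chr5:135887669-135887968 on the plus strand for Hspb1.
Bag3: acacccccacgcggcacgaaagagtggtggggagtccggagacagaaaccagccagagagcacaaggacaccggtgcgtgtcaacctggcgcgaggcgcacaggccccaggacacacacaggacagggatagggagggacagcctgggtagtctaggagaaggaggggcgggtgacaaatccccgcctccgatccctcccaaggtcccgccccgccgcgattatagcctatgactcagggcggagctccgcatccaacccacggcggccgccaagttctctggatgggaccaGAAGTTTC
Hspb8: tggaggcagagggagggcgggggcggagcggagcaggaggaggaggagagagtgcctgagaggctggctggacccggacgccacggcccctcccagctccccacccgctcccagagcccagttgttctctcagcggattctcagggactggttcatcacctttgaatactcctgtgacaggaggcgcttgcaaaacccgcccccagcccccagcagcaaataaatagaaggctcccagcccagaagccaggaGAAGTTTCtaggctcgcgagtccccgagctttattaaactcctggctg
Hspb1: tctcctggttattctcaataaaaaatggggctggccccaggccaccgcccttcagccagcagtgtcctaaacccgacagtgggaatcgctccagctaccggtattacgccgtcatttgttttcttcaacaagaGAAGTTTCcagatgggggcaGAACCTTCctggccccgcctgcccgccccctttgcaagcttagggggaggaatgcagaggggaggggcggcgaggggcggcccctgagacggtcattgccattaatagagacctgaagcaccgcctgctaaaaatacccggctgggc
Relative to the start the pair begins at base 43 in Bag3 and at base 3 in Hspb8, and the pairs of Hspb1 begin at -117 and -97. The pair was present in 11 of 28 windows of the heat shock and chaperone list (39.3%) and in 10.8% of the windows of all tested genes, 10.3% of those of genes higher by at least 1 and 10.1% of those of genes lower by at least 1. The 11 genes are listed because they hold the motif, not by the rule for named genes: Bag3, Hspb8, Hspb1, Hspa1a, Hspa1b, Hsph1 and Dnaja1 were higher, Fkbp4 was lower, and Cct5, Dnajb6 and Hspe1 did not pass. A match describes letters in the window and is no evidence of a factor's binding.

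Genes of protein folding in the endoplasmic reticulum went both ways. Of 29 tested, 8 were higher and 12 lower, with a median of -0.15 that was 0.70 with a common median. Hspa5, the chaperone BiP, differed by -0.02 and did not pass, and its other bright probe sets gave -1.86 and 2.26. Xbp1, a transcription factor of that response, was 1.37-fold lower, with another probe set at 0.62. The disulphide isomerases Pdia4 and Pdia6 were 4.14-fold and 3.29-fold lower, and Pdia3 was 17.8-fold lower on its brightest probe set (difference -4.15) but 0.40 on the next. Chac1, a glutathione-degrading enzyme induced by stress, was 4.98-fold higher.

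Degradation pathways had members in both directions. Among 37 proteasome and ubiquitin genes 16 were higher and 11 lower (median 0.12), beside 42% higher and 26.8% lower over all tested genes. Psmc4, an ATPase of the regulatory particle, was 5.30-fold higher on its brightest probe set, with another at 0.07. The core subunit Psmb7 was 7.97-fold lower, Psmd7 was 6.51-fold lower and Psme1, an activator subunit, was 6.74-fold lower. Of 33 autophagy and lysosome genes 12 were higher and 11 lower (median 0.06, and -0.18 over the second probe sets of 21). Sqstm1, the autophagy receptor p62, read 13.25, 14.04 and 14.20 against 15.58, 15.74 and 15.73, a 3.61-fold depletion. Map1lc3b, the autophagosome protein LC3B, was 2.09-fold higher on its brightest probe set with others at -0.64 and -0.39, and the lysosomal membrane protein Lamp1 did not pass (0.04, SE 0.06). Npc1, the lysosomal cholesterol transporter, was 4.67-fold lower and the protease Ctsl was 2.70-fold lower.

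Genes of the axon injury response had a median of 0.91 in the mutant, with 15 of 26 tested members higher and 6 lower. The same members had a median of 0.06 in wildtype motor neurons against wildtype tissue, and no member passed the test of the difference between genotypes. Atf3, a transcription factor induced in axotomised neurons, read 11.20, 12.36 and 11.07 in mutant motor neurons against 8.55, 8.45 and 8.03 in mutant tissue (difference 3.20, SE 0.35, adjusted p 2e-05). In wildtype it read 8.70, 8.51 and 5.08 against 8.06, 7.10 and 6.87. Sprr1a, a small proline-rich protein of regenerating axons, read 12.20, 11.50 and 9.06 against 8.45, 8.63 and 8.03 (difference 2.55, SE 0.65, adjusted p 0.00576), and 7.47, 7.54 and 8.71 against 7.88, 6.60 and 7.45 in wildtype. Every mutant motor neuron array of Atf3 and Sprr1a was above every wildtype motor neuron array. How many of all genes were separated this way was not counted. Both genes were too dim over the 12 arrays to enter the genotype test. Sox11, Socs3 and Jun were 5.31-fold, 6.43-fold and 3.09-fold higher in the mutant, with wildtype differences of 1.65, 1.59 and 1.76. Another Sox11 probe set gave -1.32 and another Jun probe set 0.23 in the mutant. The cytoskeletal protein Csrp1 was 13.6-fold lower and Cd44, an adhesion receptor also found in astrocytes, fell by 3.28. Immediate early genes had 6 of 13 higher and 1 lower, with a median of 0.68 that was -0.10 in the deposited scaling. With dim genes tested as well, 6 of 20 were higher and 3 lower, with a median of -0.19. Fos was 2.42-fold, Fosl2 3.63-fold, Ier3 5.39-fold and Dusp1 2.40-fold higher, and Arc and Egr1 did not pass.

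Sod1 itself read 16.84, 16.87 and 16.85 in mutant motor neurons against 16.46, 16.40 and 16.60 in mutant tissue, a 1.29-fold enrichment (difference 0.37, SE 0.06, adjusted p 0.000534), and the wildtype difference was 0.29. Its other bright probe sets gave -0.07, 1.19 and 1.05. Whether the mutant allele is a transgene is not stated in the labels, and these values do not check the genotype. Sod2, the mitochondrial superoxide dismutase, was 3.24-fold higher on its brightest probe set with others at 0.98, -0.90 and -0.14, and the extracellular Sod3 was too dim to be tested. Among 26 tested orthologs of ALS-linked genes 15 were higher and 8 lower, with a median of 0.47, but over the second probe sets of 18 of them 5 were higher and 9 lower, with a median of -0.26. C9orf72 read 14.21, 14.50 and 14.35 against 12.56, 12.60 and 12.60, a 3.40-fold enrichment. Tardbp, which encodes TDP-43, was 1.49-fold higher with another probe set at -2.45, Pfn1, which binds actin monomers, was 2.86-fold lower and Vapb did not pass (-0.10, SE 0.11). Of 31 antioxidant genes 12 were higher and 10 lower. Txn1, thioredoxin, was 2.74-fold higher, its inhibitor Txnip was 6.36-fold lower, and the glutathione transferases Gstm1 and Mgst1 were 4.20-fold and 6.11-fold lower.

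Energy and housekeeping genes showed how far the scaling decides small differences. Of 55 nuclear-encoded respiratory chain subunits 29 were higher and 14 lower, with a median of 0.25 beside 0.24 for all genes, and 41 higher and 5 lower in the deposited scaling. Ndufa5 and Ndufb3, subunits of complex I, were 3.07-fold and 2.68-fold higher, Cox4i1 did not pass (0.11), Atp5b was 1.95-fold and Atp5l 2.53-fold lower. Glycolytic genes had 9 of 20 higher and 7 lower. Aldoc and Slc2a1, an aldolase and a glucose transporter that astrocytes and vessels use, were 2.41-fold and 3.20-fold lower, and Ldha was 1.40-fold higher. In the cholesterol pathway 7 of 20 were higher and 6 lower, with a median of -0.07 that was 0.05 in the deposited scaling and 0.83 with a common median. Fdps, farnesyl diphosphate synthase, was 19.5-fold lower and Hsd17b7 was 3.75-fold higher, with another probe set at -0.66. Cytosolic ribosomal protein genes were lower in 25 of 37 cases and higher in 6, with a median of -0.45. That median was -0.13 in the deposited scaling and 0.65 with a common median, where 26 were higher and 5 lower. Rps9 was 6.23-fold and Rplp0 2.84-fold lower, while Rps25 and Rpl14 were 5.54-fold and 4.87-fold higher; ribosomal protein genes have many near-identical pseudogenes, so their probe sets may share signal. Of 48 splicing genes 21 were lower and 13 higher, with a median of -0.19 that was 0.72 with a common median.

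Hox genes, which set position along the cord, were mixed. Hoxc10, a gene of the lumbar cord, read 14.01, 13.90 and 13.95 in motor neurons against 11.84, 11.59 and 11.56 in tissue, a 4.91-fold enrichment. Hoxc9 was 1.47-fold higher, Hoxc8 did not pass (0.02), and Hoxd8, Hoxd3 and Hoxa5 differed by -1.89, -1.77 and -2.56 and were lower, with another Hoxa5 probe set at 1.04. Of 20 tested, 5 were higher and 8 lower (median -0.25). The labels do not give the cord level of any sample.

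Some of the largest enrichments lay outside these lists. Nell1, a secreted protein with thrombospondin-like repeats, read 14.25, 14.69 and 14.40 against 10.08, 10.52 and 9.50, a 21.3-fold enrichment (difference 4.41, SE 0.24). Amhr2, the receptor for anti-Müllerian hormone, read 13.97, 14.17 and 14.65 against 9.62, 10.12 and 10.02, a 20.3-fold enrichment, and its 2 other bright probe sets gave 3.77 and 5.13. Genes with the largest differences were named only where motor neuron and tissue arrays did not overlap, so their separation follows from that rule. Pappa, a protease of insulin-like growth factor binding proteins, was 16.8-fold higher, Syndig1l was 16.9-fold, Mrvi1 16.5-fold and Gna14, a G protein alpha subunit, 16.4-fold higher. Glyat, a glycine acyltransferase, was 15.7-fold higher. Cpne8, a copine, was higher by 4.10 on its brightest probe set, with others at 1.18 and -1.58.

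Myelin and oligodendrocyte genes were depleted as a group. Of 34 tested, 31 were lower, none was higher and 3 did not pass, with a median of -2.52 (-2.36 in the deposited scaling and -1.58 with a common median). Mag, a myelin adhesion protein, read 11.77, 11.18 and 11.70 in motor neurons against 15.90, 15.89 and 16.02 in tissue, a 20.9-fold depletion (difference -4.39, SE 0.15, adjusted p 2.81e-08). Mog, the surface glycoprotein of myelin whose promoter is shown above, read 11.82, 11.33 and 11.81 against 15.06, 14.73 and 14.84, a 9.35-fold depletion. The 3 arrays of each group lay close together for both. Pllp, plasmolipin, was 30.6-fold and Apod, apolipoprotein D, 29.8-fold lower, and Gjb1, the gap junction protein connexin 32, fell by 4.82 to a level close to background. Mobp was 5.92-fold lower and Mbp, myelin basic protein, was 1.90-fold lower on its brightest probe set, with 7 others from -7.42 to 1.36. The wildtype median of the list was -2.20. Klk6, a protease of oligodendrocytes outside the list, was 98.2-fold lower (9.71, 8.65 and 8.86 against 15.70, 15.64 and 15.73). Of 12 tested genes of oligodendrocyte precursors 10 were lower and 1 higher. Among them, Pdgfra, the receptor that marks precursors, was 6.01-fold lower, Olig1 was 4.21-fold lower, Sox8 was 9.16-fold lower and Gpr17, a receptor of maturing precursors, fell by 4.09.

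Astrocyte genes were depleted as well, with 24 of 26 homeostatic genes lower, none higher and a median of -2.18. Aqp4, the water channel of astrocyte endfeet, read 13.33, 13.47 and 13.24 against 16.26, 16.30 and 16.33, a 7.74-fold depletion (difference -2.95, SE 0.09, adjusted p 1.74e-08). The glutamate transporters Slc1a2 and Slc1a3 were 5.58-fold and 4.80-fold lower. Agt, angiotensinogen, was 26.7-fold lower, Fabp7 was 15.9-fold lower, the GABA transporter Slc6a11 was 13.3-fold lower and Cldn10 was 12.9-fold lower. Genes of reactive astrocytes were split, with 6 of 14 lower and 4 higher and a median of -0.28 that was 0.20 with a common median. Vim, vimentin, was 29.9-fold lower and Cp, ceruloplasmin, fell by 6.45. Lcn2, lipocalin 2, read 11.90, 11.92 and 11.68 in motor neurons against 9.18, 9.99 and 9.23 in tissue, a 5.15-fold enrichment, with a wildtype difference of 0.76 and an adjusted p of 0.561 for the difference between genotypes. Serpina3n was 2.23-fold higher in the mutant and its wildtype difference was 1.22.

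Vascular and connective tissue genes had the lowest median of any list with more than 8 tested genes. Of 23 pericyte, smooth muscle and fibroblast genes 22 were lower and none was higher, with a median of -3.24. Col3a1, a fibrillar collagen, read 5.37, 9.28 and 4.86 in motor neurons and 12.59, 13.98 and 13.35 in tissue, so that the motor neuron arrays spread over 4 units while staying below the tissue arrays. Ogn, osteoglycin, fell by 6.80, Igf2, a growth factor of the meninges, fell by 6.28 and Vtn, vitronectin, fell by 6.07. The smooth muscle actin Acta2 and the pericyte receptor Pdgfrb fell by 3.24 and 1.85, all to levels close to background. Of 17 endothelial genes 13 were lower and 2 higher, with a median of -2.24. Cldn5, a tight junction protein of brain vessels, fell by 3.32, Bsg, basigin, was 14.3-fold lower and Flt1, a receptor for vascular endothelial growth factor, was 5.61-fold lower. Pecam1 and Cdh5 were too dim to be tested. Motor neuron replicate 2 was the highest of the motor neuron arrays for Col3a1, Igf2 (7.40, 10.01 and 7.36) and Col1a1 (6.84, 9.06 and 7.28). It was also the highest for the neutrophil genes S100a8 (4.54, 10.31 and 7.23) and S100a9 (5.86, 9.29 and 5.87). Replicate 2 was the lowest for Ogn (7.03, 6.52 and 7.49), and the order was not counted over all members of these lists. Both neutrophil genes were lower in motor neurons, S100a8 by 5.06 and S100a9 by 5.96, and the haemoglobin gene Hba-a1 was too dim to be tested.

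Other large depletions included the largest of all, Serpinb1b, a serine protease inhibitor, which read 6.37, 5.91 and 5.03 in motor neurons and 13.88, 13.80 and 13.81 in tissue (difference -8.06, SE 0.33, adjusted p 5.9e-08). Aplnr, the apelin receptor, fell by 6.81, Cdkn1c, a cyclin-dependent kinase inhibitor, fell by 6.38 and Id1, an inhibitor of helix-loop-helix factors, fell by 6.28. All 4 read close to background on average in motor neurons, so their true depletion may exceed the difference given. Genes of the ependymal lining and of Schwann cells were mostly dim. Of 6 tested ependymal genes 2 were lower, S100a6 by 16.4-fold among them, and of 4 tested Schwann cell genes 3 were lower.

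Microglial genes were depleted in part. Of 26 identity genes 16 were lower, 1 higher and 9 did not pass, with a median of -0.80 (0.28 over the second probe sets of 4 of them). P2ry12, the purinergic receptor of resting microglia, read 9.06, 6.93 and 8.34 against 12.25, 12.06 and 12.17 and fell by 4.05. Lyz2, lysozyme, was 8.60-fold lower, C1qa, a subunit of the first complement component, was 4.60-fold lower and C1qc 2.17-fold lower. Csf1r, the receptor that microglia need to survive, read 14.49, 14.59 and 14.18 against 15.19, 15.10 and 15.15, a 1.66-fold depletion, and Cx3cr1 was 1.52-fold lower on its brightest probe set with -2.71 on another. Tyrobp, a signalling adaptor of microglia, did not pass (-0.23, SE 0.19, adjusted p 0.293), and its groups overlapped. C1qb did not pass either (0.33), with other probe sets at -2.01 and 0.51. Of 25 genes of activated microglia 7 were higher and 10 lower, with a median of -0.23 that was 0.35 with a common median. Cd9, a tetraspanin also made by oligodendrocytes, was 16.4-fold lower, Apoe, a lipid carrier that astrocytes also secrete, was 13.9-fold lower, Lgals3, galectin 3, was 2.09-fold lower, and Clec7a and Cst7, markers of disease-associated microglia, did not pass (0.35 and 0.47). In the wildtype the median difference of the identity genes was -1.66 and that of the activation genes -1.24. Complement genes had 4 of 10 higher and 4 lower, and interferon and antigen presentation genes had 12 of 29 lower and 5 higher. Of the class I genes, H2-K1 was 2.22-fold lower with another probe set at 1.02 and B2m 1.93-fold lower, with wildtype differences of -2.51 and -1.24, while the interferon-induced Ifi27 was 4.15-fold higher.

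The pattern of enrichment and depletion was largely shared with wildtype mice. Across the 10916 genes, differences in mutant and wildtype had a Pearson correlation of 0.92 and a Spearman correlation of 0.92. These were different arrays normalized together, and genes are not independent replicates. Of the 2450 genes higher by at least 1 in the mutant, 2434 had the same sign in the wildtype and 1970 were higher there by at least 1. Of the 1705 lower genes, 1694 had the same sign and 1434 were lower by at least 1. Median differences were close as well, 1.47 in the mutant and 1.49 in the wildtype for the higher genes and -1.68 and -1.75 for the lower ones. Only 27 genes called by at least 1 in the mutant had the opposite sign in the wildtype.

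**Figure D4:**
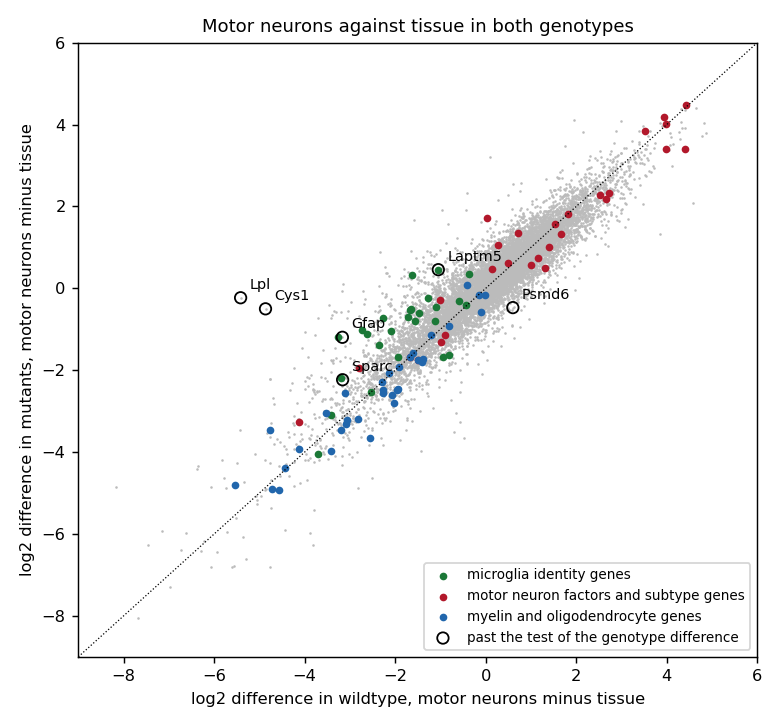
Log2 difference between motor neurons and tissue in wildtype (horizontal axis) and in SOD1 mutant mice (vertical axis) for each tested gene, with microglial (green), motor neuron (red) and myelin (blue) genes coloured and the 6 genes past the test of the genotype difference circled; the dotted line marks equal differences. Most points follow the line; 22 of 26 microglial genes lie above it, as do 5721 of all 10916 genes.

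The difference between genotypes was tested as an interaction over 12 arrays. The filter was applied over these 12 arrays, so the 10916 genes are not all the same as those of the mutant comparison. Of 10916 genes 5 (0.0458%) had a higher difference in the mutant and 1 (0.00916%) a lower one in limma at adjusted p under 0.05, while 965 had an unadjusted p under 0.05. In simulated data this test recovered 22% of log2 differences of 1, so genotype differences of that size could be missed. Lpl, lipoprotein lipase, which activated microglia express, read 11.96, 11.28 and 11.11 in mutant motor neurons and 5.96, 4.80 and 5.51 in wildtype motor neurons. Its tissue levels were 11.68 ± 0.13 and 10.84 ± 0.23 (SD, n = 3 each), so the motor neuron-tissue difference was -0.23 in the mutant and -5.42 in the wildtype (interaction 5.18, SE 0.45, adjusted p 0.000241). A second Lpl probe set gave an interaction of -0.08, so that the result rests on 1 probe set. Cys1, cystin, a protein of cilia, read 9.66, 9.74 and 9.96 in mutant motor neurons and 6.13, 5.83 and 4.58 in wildtype ones, with tissue means of 10.29 and 10.38 (interaction 4.36, SE 0.56, adjusted p 0.0113). In both genes the mutant and wildtype motor neuron arrays were far apart and the tissue arrays were not. Both were picked by a test on these arrays, so this gap is no further evidence. All wildtype motor neuron readings of Lpl and Cys1 were under 8.79, close to background, so the sizes of these interactions are uncertain.

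Gfap, the intermediate filament of astrocytes, was less depleted in the mutant on its brightest probe set. It read 13.84, 14.34 and 13.65 in mutant motor neurons and 15.49, 14.93 and 15.00 in mutant tissue, and 11.14, 10.81 and 11.35 against 14.23, 14.37 and 14.20 in wildtype (interaction 1.97, SE 0.28, adjusted p 0.0190). The level was higher in the mutant by 2.85 in motor neurons and by 0.88 in tissue. On the other bright Gfap probe sets the mutant difference was -4.85 and -4.88, against -1.20 on the brightest. Their genotype difference is not given here, and no gene passed the genotype test over second brightest probe sets. Laptm5, a lysosomal protein of microglia and other blood-derived cells, read 13.08, 13.12 and 12.59 in mutant motor neurons and 10.23, 10.39 and 10.29 in wildtype ones, and it was 1.37-fold higher than tissue in the mutant, where the groups overlapped, while its wildtype difference was -1.05 (interaction 1.50, SE 0.24, adjusted p 0.0391). Sparc, a matrix protein of astrocytes, microglia and vessels, had differences of -2.23 and -3.16 (interaction 0.93, SE 0.15, adjusted p 0.0391). Psmd6, part of the proteasome's regulatory particle, went the other way, at 14.44, 14.59 and 14.47 in mutant and 15.68, 15.41 and 15.79 in wildtype motor neurons (interaction -1.07, SE 0.15, adjusted p 0.0177), and its other bright probe set had a mutant difference of 1.34 beside -0.47 on the brightest.

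Microglial identity genes had a median interaction of 0.92, with 22 of 26 above 0 and 1, Laptm5, past the threshold, beside 5721 of 10916 above 0 and a median of 0.02 over all genes. Csf1r had an interaction of 1.55 (SE 0.37, adjusted p 0.365) and C1qc one of 1.50 (SE 0.53, adjusted p 0.514). Microglial activation genes had 17 of 20 above 0, a median of 0.38 and 1 member past the threshold. Other lists also lay mostly above 0. Among them were 27 of 32 synaptic genes (median 0.31), 19 of 22 transport genes (0.17), 18 of 20 glycolytic genes (0.14) and 23 of 27 interferon and antigen presentation genes (0.54). Myelin genes had a median interaction of -0.17, homeostatic astrocyte genes one of 0.04 and motor neuron transcription factors one of -0.25. For pericyte, smooth muscle and fibroblast genes it was -0.40. The motor neuron arrays of both genotypes had 3' to 5' actin ratios above those of tissue, 30.7 ± 7.36 in the mutant and 46.5 ± 9.06 in the wildtype (SD, n = 3), and the part of this in the genotype difference was not tested. The part of microglial or astrocyte RNA in the motor neuron samples was not tested either. The set of genes past the interaction threshold changed with single arrays, from 1 gene to 876, the latter without wildtype motor neuron replicate 2.

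**Figure D5:**
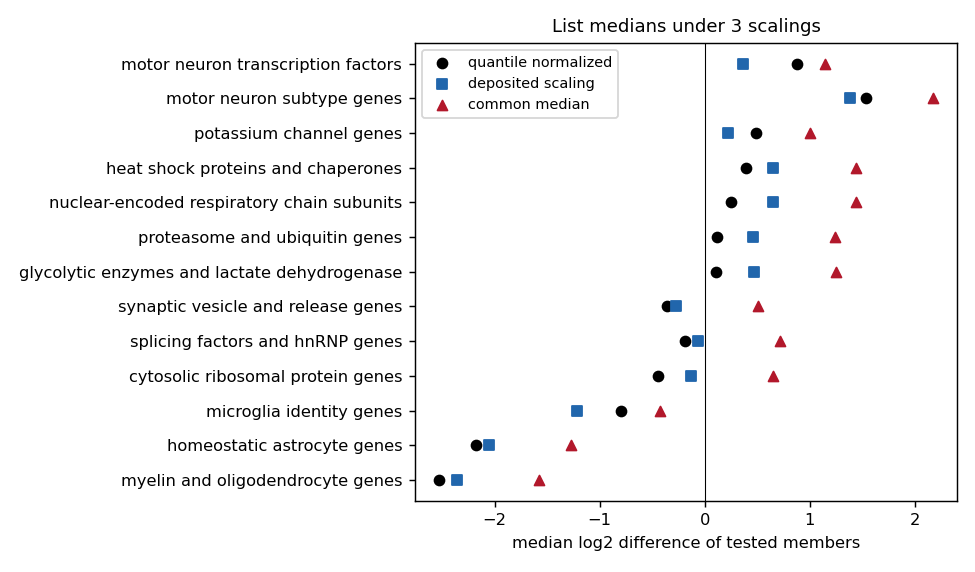
Median log2 difference of the tested members of 13 lists (horizontal axis) after quantile normalization (black circles), in the deposited scaling (blue squares) and with every array set to a common median (red triangles). Of the lists drawn, both motor neuron lists stay above 0 and the microglia identity, homeostatic astrocyte and myelin lists stay below 0 under all 3, while the synaptic, splicing and ribosomal lists change sign with a common median (0.51, 0.72 and 0.65).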

How the data were processed

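The mutant comparison used 3 motor neuron and 3 tissue arrays, and the genotype comparison added the 6 matching wildtype arrays. Values were the deposited intensity of each probe set, made by the authors and scaled so that the 2% trimmed mean of every array was the same; the software that made them is not given in the sources used here. The deposited intensity was turned into log2(intensity + 16), quantile normalized over 18 arrays, and each gene was represented by its brightest probe set with 1 symbol. Of 45101 probe sets 34958 had 1 gene symbol, 932 several and 9211 none. Of 18194 genes, 10916 above the 40th percentile were tested with limma 3.58.1 in R 4.3.3 (lmFit, eBayes with a trend, Benjamini-Hochberg adjustment). The 3 arrays a group limit the precision.

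The fits were first tested on simulated data with 200 changed genes. The mutant comparison recovered 57% of log2 differences of 1 and 92% of those of 2, with 2 false calls. The genotype comparison recovered 22% and 76%, with 5 false calls. The genes named were Sod1, the 12 largest differences each way, list members and the genotype results with the smallest p. The largest differences were taken among genes past the threshold whose motor neuron and tissue arrays did not overlap. From each list came the first 3 genes on the arrays and up to 4 further members past the threshold. The comparison, members and gene lists were chosen with earlier results of these data known. Alternatives covered scaling, pseudocount, filter, probe set, variance model, arrays in the fit, array weights, a replicate block and leaving out each array. The labels do not say what the replicate numbers mark, so numbers were not used as pairs. Deviations of same-numbered motor neuron and tissue arrays from their group means had correlations of 0.026, -0.0034 and 0.045. With 3 arrays a group these cannot show whether same-numbered samples shared a mouse.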

Additional observations from a re-analysis of the deposited data

Results flagged for a closer look

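The difference between motor neurons and tissue was itself different in the SOD1 mutant and the wildtype for 6 genes in limma's interaction test at adjusted p under 0.05. Each result is that of the brightest probe set of the gene. The mutant minus wildtype value was 5.18 for Lpl, 4.36 for Cys1, 1.97 for Gfap, 1.50 for Laptm5, 0.93 for Sparc and -1.07 for Psmd6 on the log2 scale. The wildtype motor neuron levels of Lpl and Cys1 were close to background, so the sizes of their values are uncertain. In the 5 genes with a positive value all 3 mutant motor neuron arrays were above all 3 wildtype motor neuron arrays, and in Psmd6 all 3 were below. These genes were picked by a test on the same arrays, so the separation is no further evidence. Its share over all genes was not counted.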

How the results depend on the processing

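With every array set to a common median 1672 genes were lower in mutant motor neurons. Over the second brightest probe sets 3391 genes were called, 1691 higher and 1700 lower, and with every probe set tested on its own 15540 were called, 8336 higher and 7204 lower. The remaining alternatives kept the higher, lower and total counts within 1.5 times. When 1 array was left out, 4145 to 4585 genes were higher, 2488 to 3043 lower and 6633 to 7628 called in all. With the replicate block, a fit in which numbers stand for pairs, 7425 genes were called.

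The 6 genes with a genotype difference became 0 over the second brightest probe sets, 2 without a mean-variance trend, 0 with all 18 arrays in one fit, 96 with array weights and 2 with the replicate block. They ranged from 1 to 876 when 1 array was left out, with 876 without wildtype motor neuron replicate 2 and 15 without replicate 1. The cause was not tested.

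Some named differences changed sign, and the cause was not tested. In the deposited scaling Clec7a was -0.30, Cryab 0.32, Cst7 -0.34, Epha4 -0.53, Hspa5 0.45, Kif5a 0.24 and Scn8a 0.26. With a common median Atp5b was 0.30, B2m 0.29, Cryab 1.10, Csf1r 0.46, Egr1 0.28, Hspa5 1.23, Kif5a 1.03, Kif5b 0.39, Lpl 0.19, Mbp 0.18, Psmd6 0.71, Scn8a 1.05, Slc32a1 0.050, Snap25 0.68, Tyrobp 0.56, Vapb 0.77 and Xbp1 0.72. Over second probe sets Epha4 was -0.14, Glra1 -4.60, Grid1 -1.08, H2-K1 1.02, Hoxa5 1.04, Hspb8 -2.001, Kcna6 -3.20, Map1lc3b -0.39, Map2 0.86, Nefl -0.36, Pdia3 0.40, Pdia6 0.16, Psmd6 1.34, Ret -0.40, Scn8a 1.21, Snap25 3.06, Unc5c -1.03, Vapb 0.040 and the genotype difference of Lpl -0.083. When 1 array was left out Glra1 ranged from -0.021 to 0.14 and Hoxc8 from -0.058 to 0.066, both lowest without mutant motor neuron replicate 2, and Hspa5 ranged from -0.15 to 0.099, Scn8a from -0.24 to 0.037 and Slc32a1 from -1.79 to 0.58, all highest without mutant motor neuron replicate 3. Levels close to background bound 300 of the higher genes and 290 of the lower genes on one side.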
